A study of Homo sapiens with 2 samples.

Results

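The endoplasmic reticulum (ER) and integrated stress response was described here through 40 genes, chosen by symbol from the rows of the deposited gene tables, which list 20981 genes. They were 14 ER chaperones and folding factors, 4 genes of ER-associated degradation, 3 stress sensors, 7 transcription factors and 12 targets of the transcription factor ATF4. All 40 were listed, and 37 reached a mean CPM (counts scaled to a fixed library size) of 1 and were compared. Messenger RNA had been sequenced from PANC-1, a human pancreatic ductal carcinoma line, in 2 libraries. One library came from cells carrying a control short hairpin RNA (shCtrl), and the other from cells carrying a hairpin against WBSCR22 (shWBSCR22). WBSCR22 is an older name of BUD23, the methyltransferase that modifies a guanosine of 18S ribosomal RNA. Both cultures were grown in the same serum-containing medium, and no agent that stresses the ER is named in the labels. The time after transfection, the number of hairpins used and whether the cells were a pool or a clone were not stated in the labels used here.

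The ER stress response acts when unfolded proteins gather in the ER lumen. The membrane sensors IRE1 (gene ERN1), PERK (gene EIF2AK3) and ATF6 are then released from the chaperone BiP (gene HSPA5). ATF6 is cleaved to a transcription factor and IRE1 splices the XBP1 messenger RNA, and both routes raise chaperone and degradation genes. PERK phosphorylates the initiation factor eIF2α, which lowers general translation and favours translation of ATF4. Other kinases that sense amino acid shortage, viral RNA or heme shortage phosphorylate the same factor, and this shared route is called the integrated stress response. ATF4 then raises genes of amino acid synthesis and transport and a set of stress effectors. Secretory pancreatic cells are known for a heavy folding load. Whether PANC-1, a ductal carcinoma line, carries such a load was not tested. Splicing of XBP1, cleavage of ATF6 and phosphorylation of eIF2α are not measured by counts per gene, so the values below are transcript levels only.

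Promoter sequences are shown first, because these branches are known to act through short elements in the promoters of their targets. RefSeq promoter windows of GRCh38.p14, 250 bases before to 50 bases after each start, were matched by symbol for 36 of the 40 members (51 windows). Each window was searched on both strands for 4 motifs. The ER stress element, read by ATF6 with NF-Y, was searched as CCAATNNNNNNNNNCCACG. It was found in 7 members, 6 of 13 chaperones and XBP1, against 0.0916% of all 27305 genes with a window. By window it was in 9 of 51 against 0.0769% of all 35116. It was found in 0 of 10 ATF4 targets. The windows of HSPA5 (chr9:125241294-125241593, minus strand), HSP90B1 (chr12:103930160-103930459, plus strand) and CALR (chr19:12938359-12938658, plus strand) are printed whole, since these 3 chaperones carry the same element and had different log2 ratios. Capitals mark the element on either strand, which HSP90B1 holds in 2 copies.
HSPA5: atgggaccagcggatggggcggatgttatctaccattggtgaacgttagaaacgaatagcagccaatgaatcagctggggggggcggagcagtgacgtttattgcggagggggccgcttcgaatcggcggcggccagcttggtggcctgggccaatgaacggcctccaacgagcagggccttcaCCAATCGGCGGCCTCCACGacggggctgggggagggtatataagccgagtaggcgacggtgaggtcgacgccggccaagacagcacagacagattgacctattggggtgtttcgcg
HSP90B1: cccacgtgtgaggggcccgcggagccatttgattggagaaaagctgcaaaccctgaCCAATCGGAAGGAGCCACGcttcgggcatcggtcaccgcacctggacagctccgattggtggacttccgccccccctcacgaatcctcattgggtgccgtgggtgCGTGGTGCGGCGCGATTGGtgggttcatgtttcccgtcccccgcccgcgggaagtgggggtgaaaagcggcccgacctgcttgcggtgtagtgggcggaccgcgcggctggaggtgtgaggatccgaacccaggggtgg
CALR: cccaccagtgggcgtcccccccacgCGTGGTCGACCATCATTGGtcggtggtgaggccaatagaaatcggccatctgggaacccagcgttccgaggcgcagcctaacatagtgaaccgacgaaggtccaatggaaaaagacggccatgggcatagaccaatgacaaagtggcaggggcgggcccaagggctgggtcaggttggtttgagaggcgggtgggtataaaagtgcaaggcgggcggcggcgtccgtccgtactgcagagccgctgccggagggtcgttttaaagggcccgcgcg

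The remaining 4 members with this element are printed as the element with its flanks, to show where the letters outside the searched ones differ. They lie at chr22:28800593-28800631 (XBP1, minus strand), chr22:49918544-49918582 (CRELD2, plus strand), chr5:179698768-179698806 (CANX, plus strand) and chr2:10812843-10812881 (PDIA6, minus strand). Capitals again mark the element.
XBP1: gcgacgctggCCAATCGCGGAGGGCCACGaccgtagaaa
CRELD2: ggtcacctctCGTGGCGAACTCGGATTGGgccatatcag
CANX: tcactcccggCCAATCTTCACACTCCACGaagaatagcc
PDIA6: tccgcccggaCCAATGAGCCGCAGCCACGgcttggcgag

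The shorter ER stress element, searched as ATTGGNCCACG, was found in HERPUD1, HYOU1 and SDF2L1 and in 0.0696% of all genes with a window. HYOU1 holds it in 2 copies, and the first shares bases with an unfolded protein response element, searched as TGACGTGG and found in 0.927% of all genes. The C/EBP-ATF element, to which ATF4 binds with a C/EBP partner, was searched as TGATGNAA. It was found in 4 of 36 members, ASNS, ATF3, CHAC1 and HERPUD1, and in 4.46% of all genes. Of the 10 ATF4 targets with a window 2 held it. The stretches below are from chr11:119057264-119057403 (HYOU1, minus strand), chr22:21642104-21642134 (SDF2L1, plus strand) and chr16:56931956-56932045 (HERPUD1, plus strand). Those of the ATF4 route are from chr7:97872459-97872486 (ASNS, minus strand), chr1:212565206-212565233 (ATF3, plus strand) and the whole window chr15:40953221-40953520 (CHAC1, plus strand). Capitals mark every element found, of whichever of these kinds. A match is a description of the letters in these windows.
HYOU1: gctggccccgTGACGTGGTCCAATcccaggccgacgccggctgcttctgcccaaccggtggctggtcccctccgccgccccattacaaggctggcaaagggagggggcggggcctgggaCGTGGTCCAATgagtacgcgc
SDF2L1: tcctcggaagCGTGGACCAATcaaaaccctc
HERPUD1: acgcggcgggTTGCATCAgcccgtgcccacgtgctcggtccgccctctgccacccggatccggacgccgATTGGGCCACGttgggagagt
ASNS: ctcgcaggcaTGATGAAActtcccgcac
ATF3: aaggtcaggaTGATGGAAggctgtcata
CHAC1: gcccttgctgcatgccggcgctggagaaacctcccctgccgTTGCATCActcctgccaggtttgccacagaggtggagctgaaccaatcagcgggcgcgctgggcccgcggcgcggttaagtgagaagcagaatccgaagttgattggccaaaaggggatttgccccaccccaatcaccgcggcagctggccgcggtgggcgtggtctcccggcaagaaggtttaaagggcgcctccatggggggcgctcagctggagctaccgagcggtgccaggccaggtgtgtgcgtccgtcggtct

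**Figure D1:**
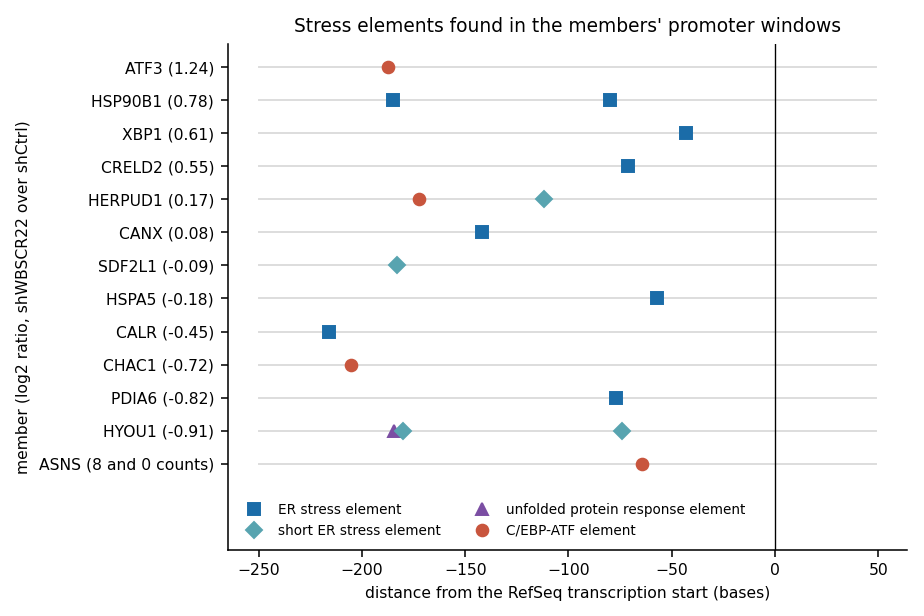
Positions of the 4 kinds of element in the promoter windows of the 13 members that hold one, in bases from the RefSeq start, with the log2 ratio of shWBSCR22 over shCtrl beside each symbol (for ASNS, the counts). Members with the ER stress element (squares) run from HSP90B1 at 0.78 to PDIA6 at -0.82.

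The libraries held 16121638 counts in shCtrl and 15248099 in shWBSCR22. BUD23 had 3487 counts in shCtrl and 1892 in shWBSCR22, a log2 ratio of -0.72 (wider interval, described next, -1.01 to -0.43). Each value below compares these libraries and not the conditions, because with 1 library per group no difference has a replicate check and no p-value can be given. The log2 ratio is that of shWBSCR22 over shCtrl after trimmed-mean (TMM) scaling, with 0.5 counts added. Its counting interval is an exact 95% interval of the ratio of the counts. A wider interval was taken from the counts divided by each library's commonest low count, which was 8 in shCtrl and 15 in shWBSCR22. This treats 8 or 15 counts as 1 independent count, since without molecular identifiers reads need not come from separate molecules. Both intervals cover counting error only and leave out variation between cultures, which 1 library per group cannot show. The intervals given below are the wider ones. The words called higher or called lower are kept for genes with a log2 ratio of 1 or more in that direction and an interval that excluded 0. The median log2 ratio of all 12980 genes compared was -0.02. In a bulk library, fewer cells of a type and less RNA per cell cannot be told apart.

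Among markers of the labelled cell type, KRT8 had 77459 and 64689 counts in shCtrl and shWBSCR22, and KRT18, KRT7, VIM and MUC1 were also detected in both. KRT19 was at 0 in both, CDH1 had 2 and 0 counts, and EPCAM had 15 and 0. The acinar markers, 5 of 13 in the table, summed to 78 and 29 counts. Of the plasma cell markers 4 of 8 were in the table, with 2304 and 2463 counts, nearly all SDC1, while MZB1 had 0 and 101, PRDM1 had 4 and 72, and IGKC had 12 and 0. The leukocyte markers, 5 of 8 in the table, had 942 and 76 counts, mostly MPO (692 and 21) and LYZ (191 and 0). The fibroblast markers, 7 of 8 in the table, had 945 and 1970 counts, mostly COL1A1 (839 and 1768), with COL3A1, FAP and ACTA2 at 0 in both. The part of these markers in the values below was not tested.

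The share of the 37 members compared that was called depended on the interval. With the counting interval 2 members, ATF3 and NUPR1, were called higher (5.41%, against 12.2% of all genes compared). DDIT4 was the 1 member called lower (2.70%, against 11.9%). With the wider interval NUPR1 was called higher (2.70%, against 4.19% of all genes) and DDIT4 lower (2.70%, against 2.98%). The wider interval lay above 0, whatever the size, for 5 members (13.5%, against 10.8% of all genes): HSP90B1, CRELD2, XBP1, NUPR1 and PHGDH. It lay below 0 for 4 members (10.8%, against 8.2%): CALR, CEBPB, DDIT4 and CHAC1. Among genes whose mean reached 30 CPM the shares were 5 of 19 members (26.3%, against 24.4%) above 0 and 3 of 19 (15.8%, against 17.9%) below 0. The shares called with the counting interval were below those of all genes, but such calls depend on expression level. At 30 CPM or more, with scaling from those genes, 114 of 3803 genes were called higher and 75 lower. Of the 19 members at that level 1 was called higher and 0 lower. The shares with the wider interval were near the background. Neither kind of share is a result about the set. Total-count scaling moves the log2 ratio of every gene down. Under it CRELD2 and XBP1 no longer lay above 0, and HSPA5, STC2 and SESN2 lay below 0. This gave 3 members above (8.11%, against 8.87% of all genes) and 7 below (18.9%, against 10.9%). CRELD2 also no longer lay above 0 with no filter, or with scaling from genes of at least 30 CPM. With the latter HSPA5 lay below 0, giving 4 of 19 members above (21.1%, against 23.2%) and 4 below (21.1%, against 19.3%). The median size of the log2 ratio, whatever its sign, was 0.45 over the members and 0.50 over all genes compared.

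**Figure D2:**
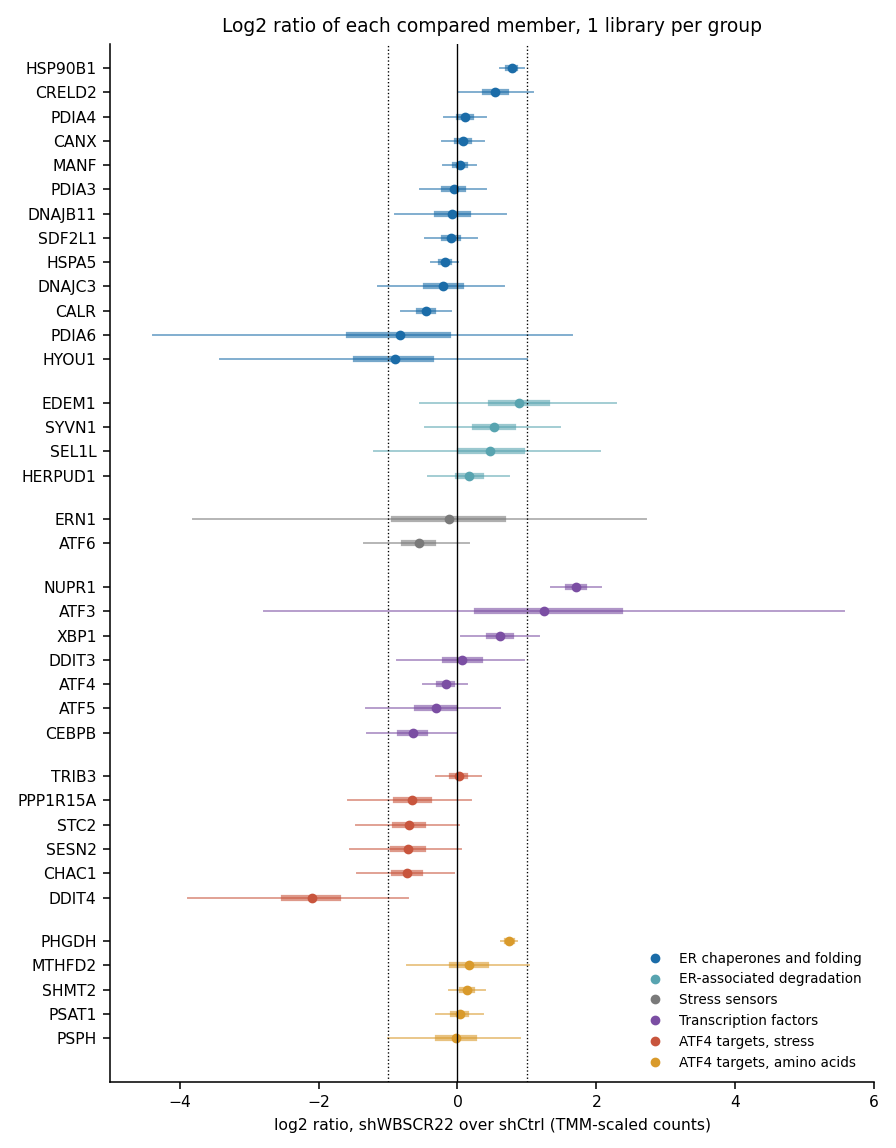
Log2 ratio of shWBSCR22 over shCtrl for the 37 members compared, by role, with the counting interval as a thick bar, the wider interval as a thin line and dotted lines at a log2 ratio of 1 in either direction. NUPR1 at 1.70 and DDIT4 at -2.09 are the members beyond these lines whose wider interval excludes 0.

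**Figure D3:**
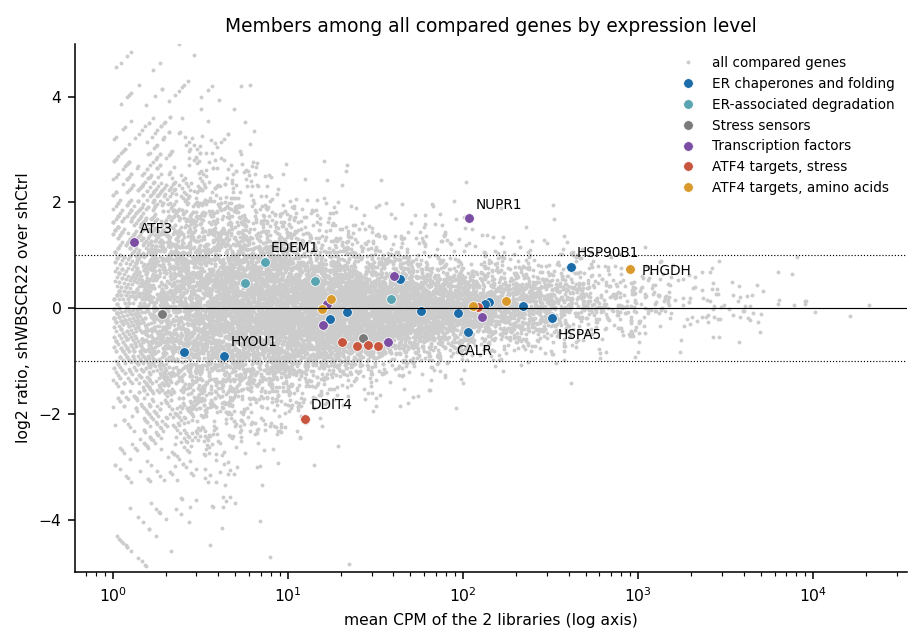
Log2 ratio against mean CPM (log axis) for the genes compared, in grey, and the members, in colour by role, with 367 genes beyond the plotted range. NUPR1 lies at the upper edge and DDIT4 at the lower edge of genes at their level, while most members lie inside the cloud.

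ER chaperones did not move in 1 direction. Of 14, 13 were compared, 5 with a positive and 8 with a negative log2 ratio, and their median was -0.08 (95% order-statistic interval -0.45 to 0.11), against -0.02 over all genes. None was called higher or lower with either interval. HSP90B1, HSPA5, CALR and CRELD2 are given first, as abundant members or members whose wider interval excluded 0.

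HSP90B1 (chr12:103930107-103953645, plus strand) encodes GRP94, the HSP90-type chaperone of the ER lumen, which folds integrins and Toll-like receptors. It had 5057 counts in shCtrl against 7750 in shWBSCR22, or 66.6 and 108 FPKM (a level per gene length and library size). Its log2 ratio was 0.78 (0.61 to 0.95), and 7.38% of 691 genes of similar level, with a mean CPM within 0.5 to 2 times its own, had a higher ratio. HSPA5, the HSP70-type chaperone BiP that binds the sensors, had 5673 and 4451 counts and 89.8 and 74.4 FPKM. Its log2 ratio was -0.18, and the wider interval, -0.38 to 0.01, held 0. The HSP90B1 level was 0.742 times that of HSPA5 in shCtrl and 1.45 times in shWBSCR22. No scaling between libraries can move this within-library ratio of FPKM. Its size, and so whether it lies below or above 1, depends on the gene lengths used. These were joined exons of 4695 bases for HSP90B1, whose longest transcript has 3032, and of 3908 for HSPA5. The change in the ratio between libraries does not depend on these lengths. This pair, like the other pairs below, was chosen after its values were seen.

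Calreticulin and calnexin form the lectin cycle that retains glycoproteins until they are folded. CALR, the soluble lectin, had 2040 and 1328 counts, or 46.5 and 32.0 FPKM, giving a log2 ratio of -0.45 (-0.82 to -0.10). Of 1770 genes of similar level 13.7% had a lower ratio. CANX, the membrane-bound lectin, had 2154 and 2029 counts, giving a log2 ratio of 0.08. The CALR level was 2.18 times that of CANX in shCtrl and 1.504 times in shWBSCR22. PDIA3, the disulfide isomerase that works with both lectins, had 968 and 832 counts, giving a log2 ratio of -0.05.

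CRELD2, a secreted ER stress protein, had 590 and 768 counts, or 7.06 and 9.71 FPKM. The log2 ratio of 0.55 had a lower bound just above 0 (0.0028 to 1.08). MANF, a secreted cofactor of BiP, had the highest FPKM of all members in shCtrl, with 105 FPKM there and 101 in shWBSCR22. SDF2L1, which keeps BiP substrates soluble together with DNAJB11, had 1598 and 1335 counts, giving a log2 ratio of -0.09. The log2 ratios of the isomerase PDIA4 (0.11) and the J-domain cochaperones DNAJB11 (-0.08) and DNAJC3 (-0.20) had wider intervals that held 0. With HSPA5, CANX, PDIA3, MANF and SDF2L1 these formed a block of chaperones between -0.20 and 0.11.

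PDIA6, an isomerase that also dampens IRE1 signalling, had 54 counts in shCtrl and 27 in shWBSCR22, a log2 ratio of -0.82 (-4.38 to 1.66). HYOU1, the nucleotide exchange factor of BiP, had 93 and 44 counts, giving a log2 ratio of -0.91 (-3.42 to 1.00). These were the lowest log2 ratios among the chaperones, at counts too low for the wider interval to exclude 0. DNAJB9, the BiP cochaperone that represses IRE1, had 9 and 0 counts and was not compared. Its wider interval held 0, so no fold is given.

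Summed over the 14 chaperones the libraries held 24751 and 24559 counts, 0.154% (exact binomial 95% interval 0.152 to 0.155) and 0.161% (0.159 to 0.163) of all counts. The log2 ratio of the sum was 0.15 (0.07 to 0.24). HSP90B1 decided its sign: without it the log2 ratio of the sum was -0.06 (-0.17 to 0.04). The sum gives abundant members most weight, whereas the median of -0.08 weights each member alike.

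**Figure D4:**
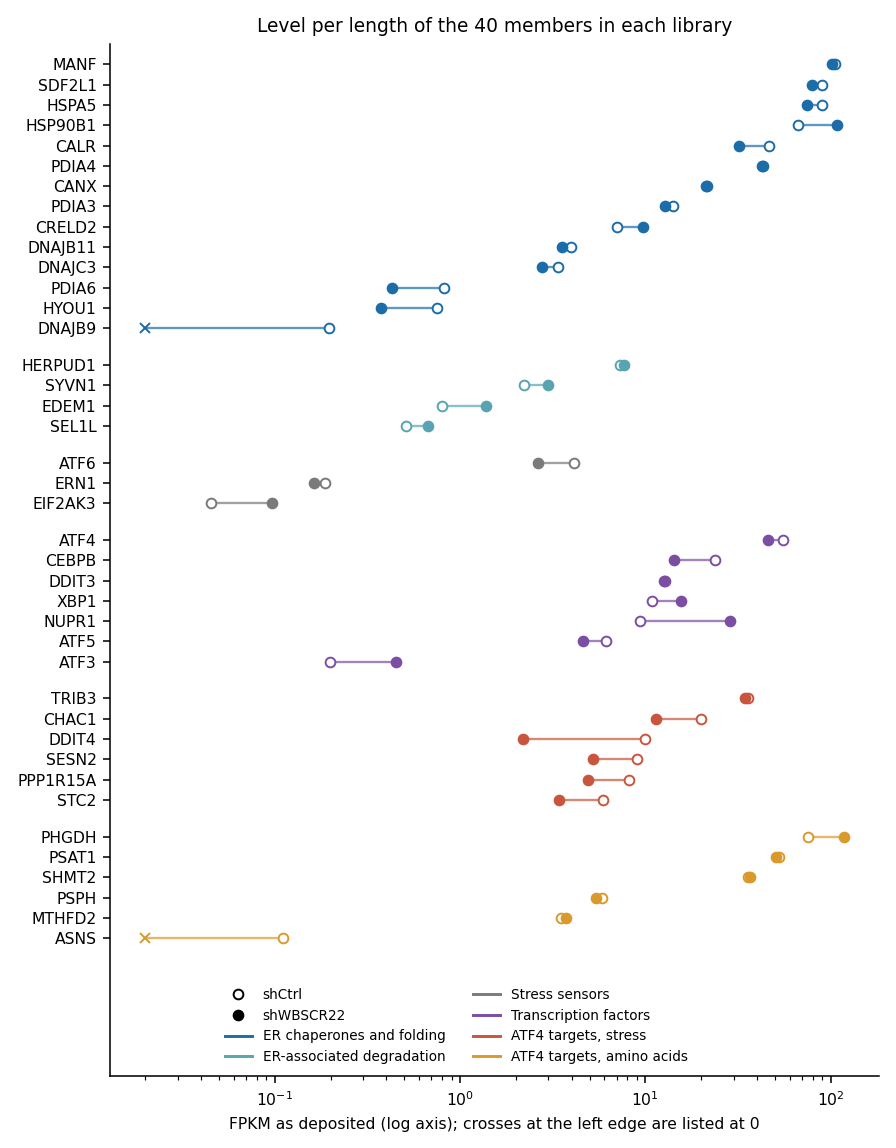
Deposited FPKM of the 40 members (log axis), open circles for shCtrl and filled circles for shWBSCR22, by role, with crosses for members listed at 0. HSP90B1 (66.6 and 108), PHGDH (75.0 and 118), NUPR1 (9.37 and 28.7) and DDIT4 (9.95 and 2.19) have separate circles, while MANF (105 and 101) and TRIB3 (36.0 and 34.3) nearly coincide.

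All 4 genes of ER-associated degradation, by which misfolded proteins are drawn back to the cytosol and destroyed, had positive log2 ratios, with a median of 0.50. Of all 12980 genes compared, 6378 had a positive log2 ratio and 6602 a negative one. None of the 4 was called, and each of their wider intervals held 0. EDEM1, which trims mannose from misfolded glycoproteins, had 87 and 143 counts, giving a log2 ratio of 0.88 (-0.54 to 2.28). SYVN1, the ubiquitin ligase HRD1, had 196 and 251 counts and 0.52 (-0.47 to 1.48). Its gene overlaps FAU on the same strand, which had 10549 and 9604 counts, and MRPL49 on the other strand, so its counts are uncertain. SEL1L, the partner of HRD1, had 79 and 98 counts, giving a log2 ratio of 0.48. HERPUD1, a small membrane protein of the same complex, had 605 and 606 counts and 0.17.

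Of the sensors, ERN1 and EIF2AK3 had low listed values per length. ERN1, the kinase and nuclease IRE1, had 33 and 27 counts, with 0.188 and 0.162 FPKM, giving a log2 ratio of -0.12 (-3.81 to 2.72). EIF2AK3, the kinase PERK, had 4 and 8 counts, or 0.0455 and 0.0962 FPKM, and was not compared. ATF6 was the most abundant of the 3, with 524 and 317 counts and 4.11 and 2.62 FPKM. Its log2 ratio was -0.56, and the wider interval, -1.34 to 0.17, held 0.

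Transcription factors included the members farthest apart between the libraries on the higher side. NUPR1 (chr16:28532708-28539174, minus strand), a small stress-induced chromatin protein first described in pancreatitis, had 860 counts in shCtrl against 2493 in shWBSCR22, or 9.37 and 28.7 FPKM. It was 3.25-fold higher in the shWBSCR22 library, a log2 ratio of 1.70 (1.34 to 2.07). Of 1764 genes of similar level 0.454% had a higher ratio. The NUPR1 level was 0.170 times that of ATF4 in shCtrl and 0.622 times in shWBSCR22. In the order of the 40 members by FPKM it went from place 19 to place 12.

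XBP1, the factor whose messenger RNA IRE1 splices, had 529 and 721 counts, or 10.8 and 15.6 FPKM. This gave a log2 ratio of 0.61 (0.05 to 1.17), and 12.02% of 2863 genes of similar level had a higher ratio. Spliced and unspliced XBP1 are not told apart by these counts. ATF4, which is controlled mainly through translation, had 2244 and 1775 counts, or 55.2 and 46.1 FPKM. The resulting log2 ratio was -0.17 (-0.49 to 0.14).

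CEBPB, a leucine zipper partner of ATF4, had 747 and 425 counts, or 23.6 and 14.2 FPKM, giving a log2 ratio of -0.65 (-1.31 to -0.03). DDIT3, the proapoptotic factor CHOP, had 269 and 252 counts, giving a log2 ratio of 0.07 (-0.87 to 0.96). It overlaps MARS and MBD6 on the other strand, and the use of strand in counting was not given in the sources used here, so its counts are uncertain. ATF5, a relative of ATF4 that is also controlled through translation, had 292 and 209 counts, giving a log2 ratio of -0.32. It overlaps NUP62 on the other strand and is uncertain for the same reason. ATF3, an early stress-induced factor, was called higher with the counting interval from 13 and 28 counts, a log2 ratio of 1.24. The wider interval, -2.78 to 5.57, held 0.

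The 12 ATF4 targets comprised 6 stress effectors and 6 amino acid genes. Over the 11 compared, the median log2 ratio was -0.02 (-0.72 to 0.17), with 5 positive and 6 negative. For the 6 stress effectors the median was -0.70, with 5 of 6 negative, and for the 5 amino acid genes it was 0.14, with 4 of 5 positive. Over all 12980 genes compared 6378 were positive and 6602 negative. The division into these roles was made with earlier results of these data known, and the difference between them has no replicate check.

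DDIT4 (chr10:72273920-72276036, plus strand), also called REDD1, restrains the growth kinase mTORC1. It had 331 counts in shCtrl against 69 in shWBSCR22, or 9.95 and 2.19 FPKM. It was 4.25-fold lower in the shWBSCR22 library, a log2 ratio of -2.09 (-3.88 to -0.71). Of 3954 genes of similar level 0.936% had a lower ratio. In the order of members by FPKM it went from place 18 to place 31. DDIT4 is also known to respond to low oxygen and to glucocorticoids, so it is not a readout of ATF4 alone.

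CHAC1, which degrades glutathione, had 666 and 360 counts, or 20.0 and 11.4 FPKM, giving a log2 ratio of -0.72 (-1.44 to -0.05). SESN2, a leucine sensor that restrains mTORC1, had 505 and 274 counts and -0.71 (-1.55 to 0.05). STC2, a secreted glycoprotein, had 582 and 321 counts and -0.69 (-1.46 to 0.02). PPP1R15A, or GADD34, which guides the phosphatase that reverses eIF2α phosphorylation, had 410 and 233 counts and -0.65 (-1.57 to 0.19). These 4 genes lay close together, and of genes at each one's level between 10.9% and 16.7% had a lower ratio. TRIB3, a pseudokinase induced by ATF4 and CHOP that inhibits both AKT and ATF4, stood outside them, with 1998 and 1801 counts and 0.02 (-0.31 to 0.34). The CHAC1 level was 0.556 times that of TRIB3 in shCtrl and 0.334 times in shWBSCR22, and the DDIT4 level was 0.276 and 0.0639 times that of TRIB3. Summed, the 6 stress effectors had 4492 and 3058 counts, a log2 ratio of -0.39 (-0.63 to -0.16).

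PHGDH (chr1:119648411-119744226, plus strand), the first enzyme of serine synthesis, was the member with the most counts. It had 11173 counts in shCtrl against 16687 in shWBSCR22, or 75.0 and 118 FPKM. By FPKM it was at place 4 among the members in shCtrl and at place 1 in shWBSCR22. Such places depend on the length used, here 9217 bases of joined exons, whereas the longest PHGDH transcript has 3180. Whether PHGDH would change place with another length was not tested. The log2 ratio of PHGDH was 0.74 (0.63 to 0.86), and 8.62% of 290 genes of similar level had a higher ratio. The later enzymes of the same pathway had values near 0. PSAT1, the aminotransferase of the next step, had 1857 and 1694 counts, giving a log2 ratio of 0.03 (-0.30 to 0.36). PSPH, the phosphatase of the last step, had 262 and 230 counts and -0.02 (-1.0005 to 0.89). The PHGDH level was 1.43 times that of PSAT1 in shCtrl and 2.34 times in shWBSCR22. The size of these ratios also depends on the length used, while their change between libraries does not.

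SHMT2, the mitochondrial enzyme that turns serine into glycine and a one-carbon unit, had 2782 and 2729 counts, giving a log2 ratio of 0.14 (-0.13 to 0.40). MTHFD2, which carries that unit onward in mitochondria, had 277 and 278 counts and 0.17 (-0.73 to 1.02). ASNS, asparagine synthetase and a standard readout of ATF4, had 8 and 0 counts and was not compared. As for DNAJB9, the wider interval held 0 and no fold is given. Per length it was listed at 0.111 and 0 FPKM, below PSAT1 and PHGDH in both libraries. KRT19, a marker of the labelled cell type, was listed at 0 in both libraries. Whether such values reflect low expression or how the counts were made was not tested.

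Summed over the 12 ATF4 targets the libraries held 20851 and 24676 counts, a log2 ratio of 0.41 (0.32 to 0.50). PHGDH made up 53.6% of that sum in shCtrl and 67.6% in shWBSCR22, and without it the log2 ratio was -0.11 (-0.26 to 0.04). Set against the chaperones, the ATF4 targets had a median of -0.02 beside -0.08, a sum of 0.41 beside 0.15, and sums of -0.11 beside -0.06 once PHGDH and HSP90B1 were left out. With no filter on low counts, which lets in ASNS and DNAJB9, the median was -0.34 for the ATF4 targets and -0.09 for the chaperones, so their order turned. The median of all 18020 genes at that setting was -0.105, near that of the chaperones. The move of the ATF4 targets came with the entry of 1 gene, ASNS, at 8 and 0 counts. With deposited FPKM the sums were 0.079 and -0.0089, so that of the chaperones changed sign. The chaperone log2 ratios ran from -0.91 to 0.78 and those of the ATF4 targets from -2.09 to 0.74, so the groups overlap over nearly the whole range of the chaperones. Adding the factors ATF3, ATF5, DDIT3, CEBPB and NUPR1, which ATF4 is known to induce or work with, gave a median of -0.00268 over 16 genes.

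**Figure D5:**
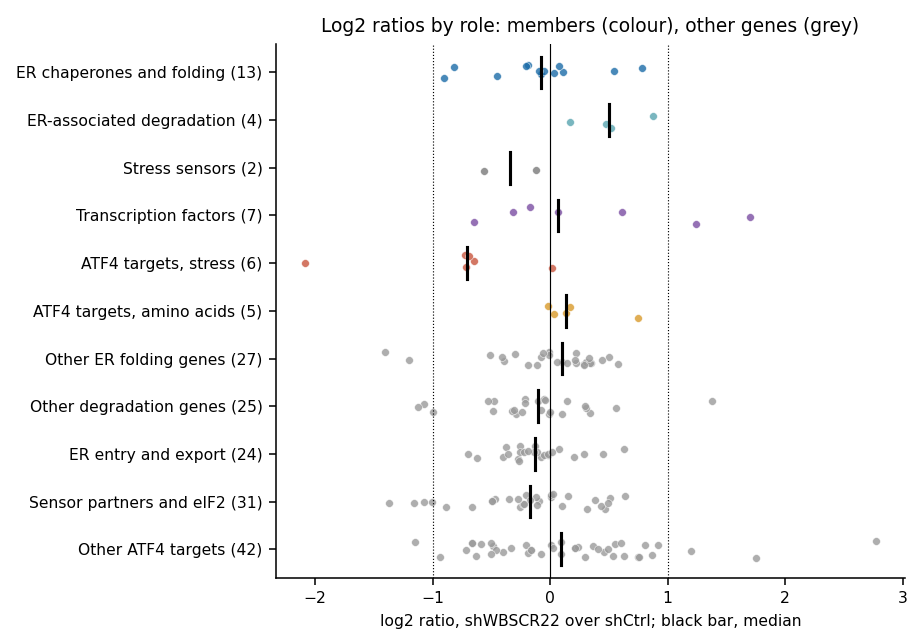
Log2 ratios of the members by role (colour) and of other genes of the same pathways (grey), with the number compared in brackets, black bars for medians and dotted lines at a log2 ratio of 1 in either direction. The stress effectors have a median of -0.70 and the degradation members 0.50, while the medians of the grey lists lie between -0.17 and 0.10.

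Wider lists of the same pathways, which hold no member, were read beside the members. Of 27 other ER folding genes compared, 0 were called higher and 2 lower with either interval, and their median was 0.10. The share lower was 7.41%, against the 11.9% (counting) and 2.98% (wider) of all genes given above. Those lower were TMX1, a membrane thioredoxin, with 224 and 75 counts (-1.41), and SDF2, a relative of SDF2L1, with 590 and 229 counts (-1.20). Whatever the size, the wider interval lay above 0 for 6 of the 27 and below 0 for 2. At 30 CPM or more it lay above 0 for 6 of 14 (42.9%, against 24.4% of all genes at that level). It lay below 0 for 0 of these 14 (against 17.9%). Of 25 other degradation genes 1 was called higher and 2 lower with the counting interval, none of them with the wider one, shares of 4% and 8% that lie below those of all genes, and the median was -0.10, so the positive values of the 4 degradation members were not seen in that list's median. Of 24 genes of ER entry and export none was called with either interval, and their median was -0.13. Over all genes 12.2% were called higher and 11.9% lower with the counting interval, and 4.19% and 2.98% with the wider one. At 30 CPM or more the wider interval lay above 0 for 1 and below 0 for 2 of 13 other degradation genes. For the 18 genes of entry and export at that level it lay above 0 for 1 and below 0 for 0.

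Among 31 partners of the sensors and genes of eIF2 control, 0 were called higher and 4 lower with the counting interval, and 2 lower with the wider one. The shares lower were 12.9%, near the 11.9% of all genes, and 6.45%, against 2.98%. Those lower with the wider interval were NFE2L2, the antioxidant factor NRF2, which PERK can phosphorylate, with 320 and 135 counts (-1.08), and CREB3L2, a membrane-bound factor cleaved like ATF6, with 385 and 171 counts (-1.003). Among 42 other ATF4 targets 3 were called higher and 1 lower with the counting interval (7.14% and 2.38%, below the shares of all genes). The last was GDF15, a secreted stress hormone, with 926 and 371 counts, giving a log2 ratio of -1.15 (-1.84 to -0.52). It was the only one of the 42 called with the wider interval (2.38%, against 2.98% of all genes called lower). Of 12 genes of ER stress apoptosis 1 was called higher and 1 lower with the counting interval (8.33% each, again below all genes). TNFRSF10A, a death receptor, was lower with both intervals, from 103 and 9 counts (-3.28). It was the 1 gene of these 12 called with the wider interval (8.33%, against 2.98% of all genes called lower).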

How the data were processed

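Per the labels' protocols, both libraries were made from total RNA with a TruSeq RNA kit. The submitters' processing notes name HISAT2, StringTie and DESeq with GRCh38, without versions or roles. The authors deposited whole-number counts per gene and FPKM per gene. The counting program, annotation, use of strand and FPKM scaling were not given in the sources used here. For 39 of 40 members the length implied by the deposited FPKM lay within 5% of all exons of the gene joined in GENCODE 29, so levels per length rest on joined exons (9217 bases for PHGDH, whose longest transcript has 3180).

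The comparison took genes whose mean reached 1 CPM (12980). Counts were scaled by TMM (edgeR 4.0.16, R 4.3.3; factors 1.03 and 0.970), and exact conditional binomial (Clopper-Pearson) 95% intervals were computed with scipy 1.17.1. Low-count modes were averaged over 3 neighbouring counts. The counting interval, and not the wider one, was tested on simulated counts that held counting error only. The members, their roles, the other lists and the wider interval were chosen with earlier results of these data known. Besides members, named genes were BUD23, markers, and up to 4 genes per list called with the wider interval; LARS, SARS, MARS, SLC7A11 and SLC38A2, and genes named for an overlap, were chosen after their values were seen. Genes with pseudogene copies (ASNS, ATF4, HSP90B1, MTHFD2, PDIA3, PSAT1, PSPH and XBP1) may share reads with them. HSP90B1 overlaps C12orf73 on the other strand, which had 103 and 59 counts. PDIA3, NUPR1, PSPH and SHMT2 had no promoter entry. The alternatives tried were scaling by upper quartile, by DESeq2 (1.42.0) or by total count, 2 counts added, FPKM with a pseudocount of 0.1, and other filters.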

Additional observations from a re-analysis of the deposited data

How the results depend on the processing

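All 244 values of single members under the alternatives stayed within their wider interval, and 5 members with a log2 ratio of at most 0.08 in size (CANX, MANF, DDIT3, TRIB3 and PSAT1) changed sign. The median of the ATF4 targets moved from -0.02 to -0.34 with no filter, which lets in ASNS at 8 and 0 counts. With no filter the median of all genes was -0.105. The other medians of chaperones, ATF4 targets and all members stayed between -0.16 and 0.03. With FPKM and a pseudocount of 0.1, 1 member was called higher with the counting interval, beside 1244 of all 12980 genes. With at least 30 CPM, 1 was called higher and 0 lower with the counting interval, and 0 lower with the wider one, since DDIT4 and ATF3 are below that level. With no filter 3 of 40 members were called lower with the counting interval, DNAJB9 and ASNS being added. Of all 18020 genes 3816 were called lower at that setting, so the members do not stand out. The log2 ratio of the chaperone sum was -0.0089 with FPKM, 0.24 without HSPA5 and -0.063 without HSP90B1. That of the ATF4 target sum was 0.079 with FPKM and -0.11 without PHGDH. Leaving out HSP90B1 or PHGDH was chosen after seeing the data. FPKM is not TMM-scaled and weights genes by length. Total-count scaling moved the median of all genes by -0.09. With it the members whose wider interval lay above 0 went from 5 to 3 and those below 0 from 4 to 7. Counting members by the side of the wider interval was added after seeing the data, while the scaling itself was planned. Low counts limit DNAJB9, ASNS, EIF2AK3, ERN1, ATF3, PDIA6 and HYOU1. Whether their counts reflect low expression or the making of the count table was not tested. No paired analysis was possible because each group has 1 library.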

Other observations

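The other ATF4 targets were also read by class, in a grouping made after the values were seen. Of 12 aminoacyl-tRNA synthetases, which charge tRNAs, the wider interval lay above 0 for 5 and below 0 for 1, with a median log2 ratio of 0.23. Those above 0 included LARS, with 1981 counts in shCtrl and 2561 in shWBSCR22 (0.54), and SARS, with 3635 and 4568 (0.50), and the one below was MARS, with 1071 and 675 (-0.50), which overlaps DDIT3. Of 10 amino acid transporters of the SLC families it lay above 0 for 2 and below 0 for 4, with a median of -0.34. SLC7A11, the cystine transporter, had 1123 and 524 counts, giving a log2 ratio of -0.93 (-1.51 to -0.39), whereas SLC38A2, a neutral amino acid transporter, had 1039 and 1558 counts and 0.75 (0.36 to 1.13). Across the 42 genes of the list the wider interval lay above 0 for 10 and below 0 for 6, all of them among the 28 genes with a mean of 30 CPM or more. These are 35.7% and 21.4% of the 28, beside 24.4% and 17.9% of all genes at that level, and the classes chosen here after seeing values show nothing beyond their counts.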
